A study of Mus musculus with 30 samples.

Results

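The mRNAs of the oxidative phosphorylation complexes were followed across mouse blood and marrow cells as the 95 of 23060 gene symbols whose names open with Nduf and one of the letters a, b, c, s or v, with Uqc, with Cox4 to Cox8 or with Atp5, together with Sdha, Sdhb, Sdhc and Sdhd. Sorted by textbook role, they held 74 widely expressed subunits, 13 assembly factors and 8 tissue isoforms of cytochrome c oxidase (complex IV) subunits. The 74 subunits were 36 of complex I, 4 of complex II, 8 of complex III, 11 of complex IV and 15 of complex V, and 20 of them belong to the conserved cores of these enzymes. The subunits encoded by mitochondrial DNA were not analysed here. Of the 95 members, 92 reached 1 FPKM (fragments per kilobase of transcript, scaled to the mapped fragments of the library) in at least 2 libraries and were tested. The other 3 were isoforms: Cox7b2 stayed at or under 0.462 FPKM, Cox8b reached 1.499 FPKM in 1 library, and Cox8c was listed at 0 in every library.

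Oxidative phosphorylation makes most of the ATP of a respiring cell in the inner mitochondrial membrane. Complexes I and II pass electrons from NADH and succinate to ubiquinone, complex III passes them on to cytochrome c, and complex IV reduces oxygen. Complexes I, III and IV pump protons, and complex V, the ATP synthase, uses the proton gradient. Each complex needs its subunits in fixed proportion and dedicated assembly factors. Long-term haematopoietic stem cells in the marrow are known for low mitochondrial activity and for leaning on glycolysis while quiescent.

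The series, on the conversion of adult endothelium to haematopoietic cells, holds 30 poly-A selected RNA libraries of cells purified by flow sorting with a purity mask. FGRS KLS cells (3 libraries) were annotated as derived, grew adherent on a layer of HUVEC (endothelial cells of the human umbilical vein), and were sorted on day 28. FGRS names 4 transcription factors by their initials (Fosb, Gfi1, Runx1, Spi1), and KLS stands for Kit+, lineage-negative, Sca1+ cells. The rEC libraries, also annotated as derived, and the control libraries, annotated as wild type, were freshly isolated: LKS-SLAM cells of the bone marrow (3 rEC, 3 control), a fraction enriched for stem cells, and 4 blood fractions, namely Gr1+ Cd11b+ myeloid (2 rEC, 2 control), B220+ B (3 rEC, 3 control), Cd3+ CD4 (2 rEC, 2 control) and Cd3+ CD8 cells (3 rEC, 3 control). rEC is read here as cells descended from the converted endothelium. Replicate 2 of the rEC LKS-SLAM and rEC B cells is titled as clone 47G1, and 5 other rEC titles hold the word secondary, which the labels do not explain. One further library, a B220+ sample of this clone annotated as wild type, was left without a group. The labels give no age, sex or strain, and do not say that replicates came from separate animals, so p-values measure the spread between libraries, which may be technical.

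FPKM carry no counts, so absolute depth is unknown. Relative depth, read from the lowest non-zero values, ran from 0.586 to 1.13 of a reference library. Several libraries held marker genes at odds with their labels or unlike those of the cells they are compared with. The FGRS KLS libraries had 32.9, 12.3 and 11.6 FPKM of Kit and at most 0.48 FPKM of Slamf1, against 116 to 133 FPKM of Kit and 9.34 to 16.1 FPKM of Slamf1 in control LKS-SLAM cells. Slamf1 is not part of the KLS label. Ly6a (the Sca1 gene), which is, had 104, 99.1 and 72.0 FPKM in the FGRS KLS libraries, against 90.8, 65.0 and 108 FPKM in control LKS-SLAM cells. The mean over 12 macrophage markers was 4.14, 6.73 and 5.98 in the FGRS KLS libraries on the log2(FPKM + 1) scale, against 2.24 to 2.52 in control LKS-SLAM cells. rEC LKS-SLAM replicate 2 had 6.99 FPKM of Ly6a and 201 FPKM of Klf1, an erythroid factor. rEC B replicate 1 had 198 FPKM of Cd3e, a T cell receptor component. The control LKS-SLAM libraries, the baseline of most comparisons, had means of 6.29 to 6.66 over 15 neutrophil markers and of 6.49, 7.23 and 1.07 over 8 eosinophil markers, and replicate 3 had means of 2.76 over T cell and 2.94 over B cell markers. The control CD8 libraries had means of 4.14 to 5.22 over B cell markers. The part of these cells in the differences was not tested.

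Across the 29 grouped libraries the mean log2(FPKM + 1) of the subunit mRNAs was highest in the cultured FGRS KLS cells, lower in LKS-SLAM cells and lowest in myeloid cells, whose libraries were also low over all tested genes (median 2.69 to 2.88, against 3.21 to 3.71 in the other groups). The mean log2(FPKM + 1) of the 74 subunits was 7.47, 7.97 and 7.91 in the FGRS KLS libraries, 6.81, 7.88 and 6.43 in rEC LKS-SLAM cells and 7.03, 7.12 and 6.79 in control LKS-SLAM cells. The blood cells lay between 5.94 in an rEC myeloid library and 6.83 in rEC B replicate 1. Group means fell in the order control LKS-SLAM 6.98 ± 0.17 (SD, n = 3), control CD8 6.600 ± 0.065 (n = 3), control CD4 6.503 ± 0.041 (n = 2), control B 6.45 ± 0.28 (n = 3) and control myeloid 6.09 ± 0.01 (n = 2). The neighbours CD4 and B in this order overlapped in their libraries, and B replicate 1, at 6.77, lay above every CD8 library. Together the subunits took 3.12 ± 0.27% of the summed FPKM in FGRS KLS cells (SD, n = 3), 2.16 ± 1.09% in rEC LKS-SLAM cells (n = 3) and 1.98 ± 0.21% in control LKS-SLAM cells (n = 3). By this share control myeloid cells had 1.32 and 1.29%, control CD4 cells 1.18 and 1.49%, and the other blood libraries 1.12 to 1.57%. A single gene, Gm25500, held 174468 of the 727885 summed FPKM in control CD4 replicate 1, the library at 1.18%. It was at 0 in control CD4 replicate 2 and in both control myeloid libraries, so the share cannot order these cells. In bulk RNA, fewer cells of a type and less RNA per cell cannot be told apart.

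**Figure D1:**
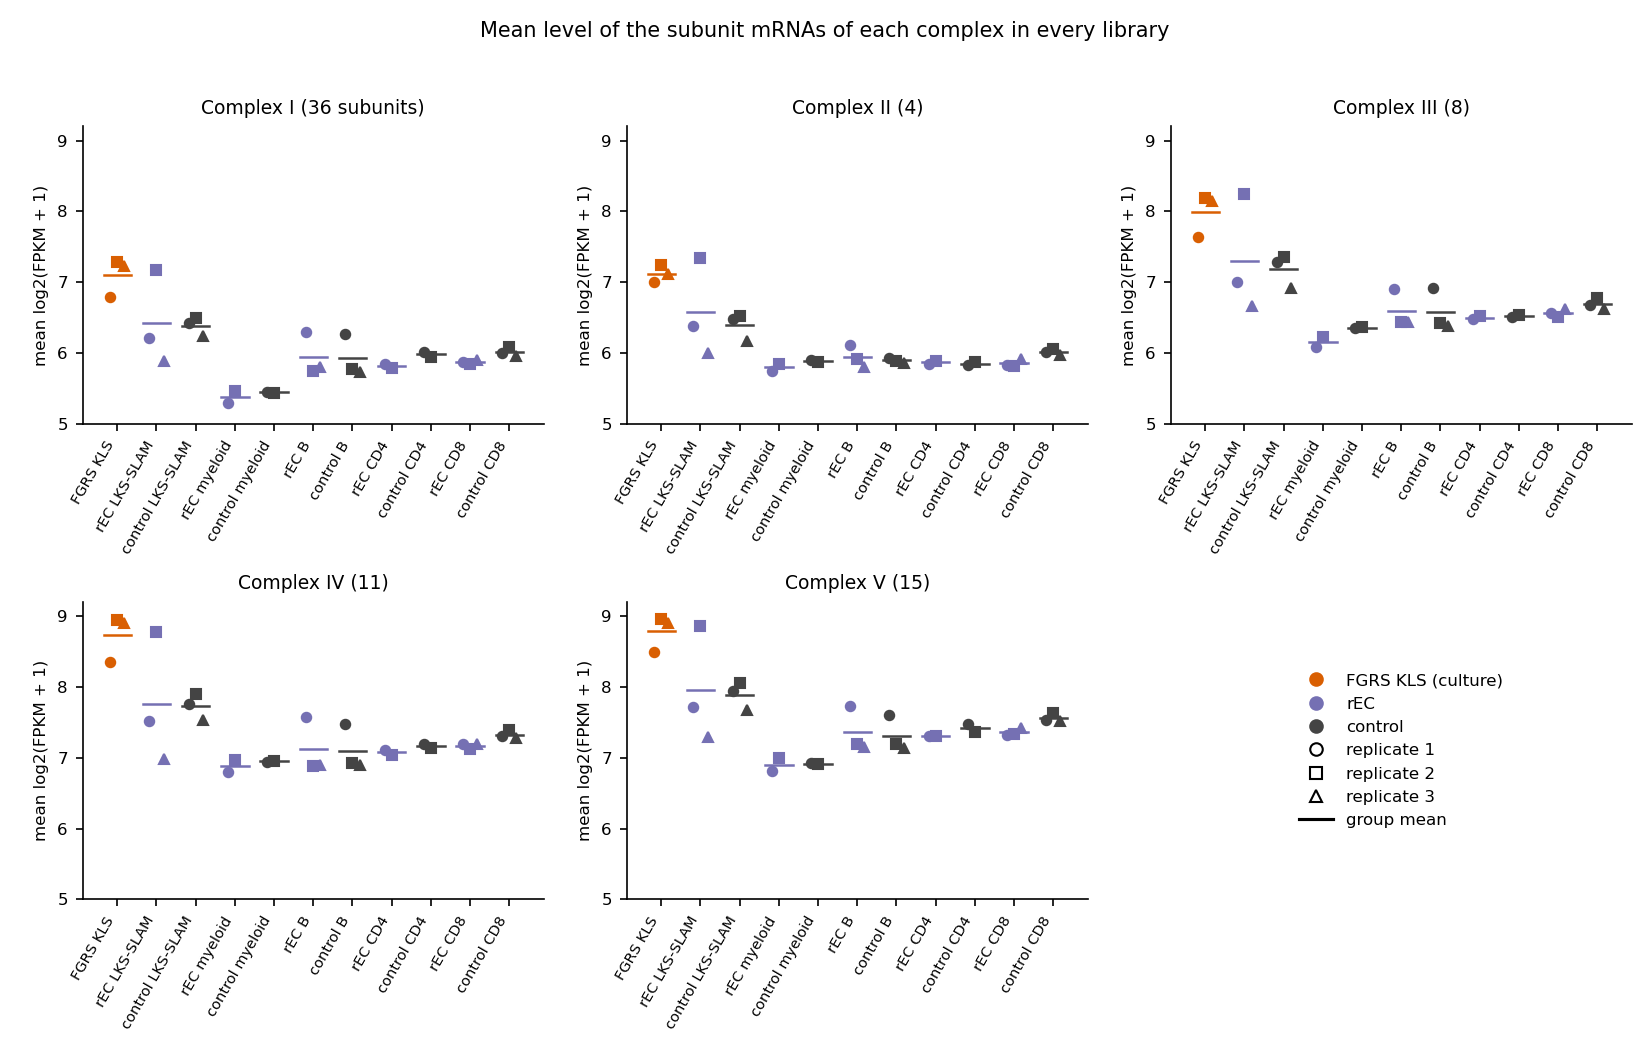
Mean log2(FPKM + 1) of the subunit mRNAs of each complex (y axis) in every library, by group (x axis), with replicates as symbols and group means as lines. In each complex the FGRS KLS libraries and rEC LKS-SLAM replicate 2 lie at the top and the myeloid libraries at or near the bottom.

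The 5 complexes kept nearly the same order in every group, with complexes IV and V above complex III, and complexes I and II lowest. In FGRS KLS cells the complex means were 7.10 ± 0.27 for I, 7.12 ± 0.12 for II, 7.99 ± 0.31 for III, 8.74 ± 0.33 for IV and 8.79 ± 0.25 for V. In control LKS-SLAM cells they were 6.39 ± 0.14, 6.39 ± 0.19, 7.19 ± 0.24, 7.74 ± 0.18 and 7.89 ± 0.20 in the same order of complexes (log2(FPKM + 1), SD, n = 3 in each group). The most abundant mRNA per kilobase, as the mean over the 29 libraries, was Ndufa3 in complex I at 215 FPKM, Sdha in complex II at 90.4 FPKM, Uqcrh in complex III at 286 FPKM, Cox8a in complex IV at 397 FPKM and Atp5b in complex V at 388 FPKM. Of the 74 subunits, 45 had their highest value in an FGRS KLS library and 28 in rEC LKS-SLAM replicate 2, and 44 had their lowest value in a myeloid library.

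The first comparison set the cultured FGRS KLS cells against native LKS-SLAM cells. Gate, culture and origin differ together between these groups and cannot be told apart. Most subunits were higher in the cultured cells. With limma on log2(FPKM + 1), adjusted by Benjamini-Hochberg over 14083 genes and called at 0.05, 58 of the 92 tested members were higher and 3 lower, where 17.1% of all tested genes were higher and 31.7% lower. Among the 74 subunits 53 were higher and 0 lower. At an unadjusted p under 0.05 the lower count was also 0, beside 7740 of all 14083 tested genes in either direction. All 74 differences were positive, from 0.10 to 1.91 with a median of 0.80, while the median over all tested genes was -0.19. The standard errors of these differences ran from 0.14 to 0.44. The libraries of the 2 groups did not overlap for 66 members that were higher and 4 that were lower, against 22.4% and 36.2% of all tested genes.

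The count depended on how the libraries were put on one scale. After quantile normalisation 22 of 92 members were higher and 2 lower, where 20.9% of all genes were higher and 20.3% lower. The members' higher count was then near that of all genes, while their lower count was under it. Of the 61 calls 19 were kept, and 65 of 74 subunits were positive. After median-ratio scaling 76 members were called, 60 of the 61 kept their call and all 74 subunits stayed positive, with 22.1% of all genes higher and 26.9% lower. With FGRS KLS replicate 1 as the single cultured library, 4 members were higher and 2 lower, where 6.61% of all tested genes were higher and 13.7% lower, so members were not called higher more often than other genes, and 68 of 74 subunits were positive. The count was 40 without control LKS-SLAM replicate 3, 38 without FGRS KLS replicate 2 and 39 without FGRS KLS replicate 3. Leaving out rEC LKS-SLAM replicate 2 and rEC B replicate 1, which enter only the pooled spread here, gave 77. Then 23.3% of all genes were higher and 38.3% lower.

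In complex V, 14 of 15 subunits rose, including all 8 core genes. Atp5b, the catalytic beta subunit of the F1 head, had 946, 990 and 854 FPKM in FGRS KLS cells, against 486, 508 and 446 FPKM in control LKS-SLAM cells. The groups did not overlap, and the difference was 0.95 ± 0.26 (log2, SE; adjusted p = 0.00547). Atp5k, an accessory subunit of the membrane part, rose by 1.38 ± 0.39 (adjusted p = 0.00585). Atp5h, a stalk subunit, was the exception, with 325, 469 and 478 FPKM in FGRS KLS cells, against 285, 320 and 212 FPKM in control LKS-SLAM cells. Its difference of 0.64 ± 0.28 did not pass (adjusted p = 0.0665), although its libraries did not overlap.

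The c subunit of the ATP synthase rotor is encoded by 3 genes whose mature proteins are the same. All 3 rose, by 1.21 ± 0.44 for Atp5g1, 0.54 ± 0.22 for Atp5g2 and 1.22 ± 0.30 for Atp5g3 (log2, SE; adjusted p = 0.027, 0.0481 and 0.00247). Their proportions also differed. Atp5g3 made up 44.2 ± 1.1% of their summed FPKM in FGRS KLS cells and 35.9 ± 0.9% in control LKS-SLAM cells, and Atp5g2 made up 38.3 ± 1.2% in FGRS KLS cells and 49.8 ± 1.3% in control LKS-SLAM cells (SD, n = 3 each). The ranges of these shares did not overlap between both groups. About 38.2% of the 51-base windows of Atp5g2 transcripts also occur in transcripts of other genes, so its reads could be split with near-identical copies.

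All 11 widely expressed subunits of complex IV rose, by 0.82 to 1.39 with a median of 0.97. Cox5a, a subunit on the matrix side of the enzyme, had 278, 458 and 434 FPKM in FGRS KLS cells, against 152, 144 and 140 FPKM in control LKS-SLAM cells. The cultured libraries all lay above the native ones, and the difference was 1.39 ± 0.35 (adjusted p = 0.00269), although 31.4% of its 51-base windows are shared with other genes' transcripts. Cox4i1, the common form of the largest nuclear subunit, had 545, 826 and 863 FPKM in FGRS KLS cells, against 392, 444 and 297 FPKM in control LKS-SLAM cells. These groups were also apart (0.97 ± 0.27, adjusted p = 0.00586).

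In complex III, 4 of 8 subunits rose. Uqcrq, a small membrane subunit, gave the largest difference among the 74 subunits. It had 446, 634 and 736 FPKM in FGRS KLS cells, against 179, 178 and 122 FPKM in control LKS-SLAM cells. The lowest cultured library was above the highest native one, with a difference of 1.91 ± 0.38 (adjusted p = 0.000396). The Rieske iron-sulfur protein Uqcrfs1, the core member of this complex among the 8, rose by 0.76 ± 0.20 (adjusted p = 0.00448). The abundant hinge protein Uqcrh averaged 367 ± 94 FPKM in FGRS KLS cells and 316 ± 43 FPKM in control LKS-SLAM cells (SD, n = 3 each), which did not pass (adjusted p = 0.555).

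In complex II, which is also an enzyme of the citric acid cycle, Sdhb, Sdhc and Sdhd rose and Sdha did not pass. Sdhb, the iron-sulfur subunit, had 121, 181 and 160 FPKM in FGRS KLS cells, against 75.4, 80.9 and 67.8 FPKM in control LKS-SLAM cells. The groups did not overlap (1.02 ± 0.26, adjusted p = 0.00302). Sdha, the flavoprotein that oxidises succinate, had 126, 112 and 101 FPKM in FGRS KLS cells, against 114, 113 and 82.4 FPKM in control LKS-SLAM cells. These values overlapped, and the difference was 0.14 ± 0.14 (adjusted p = 0.447).

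In complex I, 21 of 36 subunits rose, 3 of 7 core and 18 of 29 accessory ones, with a median difference of 0.72 over the 36. Ndufs5, an accessory subunit, had 77.2, 98.2 and 108 FPKM in FGRS KLS cells, against 22.6, 31.8 and 35.96 FPKM in control LKS-SLAM cells. Its groups were well apart (1.63 ± 0.27, adjusted p = 7.09e-05), although 21.5% of its 51-base windows are shared with another gene's transcripts. Ndufs7, a core subunit, gave the smallest difference of the 74, 0.10 ± 0.21, and did not pass (adjusted p = 0.735).

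The assembly factors did not move as the subunits did. Among the 13, 1 rose and 2 fell, with a median of 0.28, and none of the 8 complex I factors passed. Uqcc2, which works in cytochrome b synthesis for complex III, rose by 1.09 ± 0.42 (adjusted p = 0.035). Uqcc3, an assembly factor of the same complex, had 13.1, 26.6 and 21.7 FPKM in FGRS KLS cells, against 41.5, 38.4 and 34.7 FPKM in control LKS-SLAM cells. It fell by 0.92 ± 0.24 on the log2 scale in cultured cells (adjusted p = 0.00341), and the groups did not overlap. Atp5s, the coupling factor B of the ATP synthase, had 5.55, 4.61 and 5.70 FPKM in FGRS KLS cells, against 8.42, 12.04 and 7.74 FPKM in control LKS-SLAM cells. Its fall of 0.71 ± 0.26 passed with all libraries (adjusted p = 0.0293) but not without control LKS-SLAM replicate 2 (adjusted p = 0.139) or FGRS KLS replicate 2 (adjusted p = 0.0978).

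**Figure D2:**
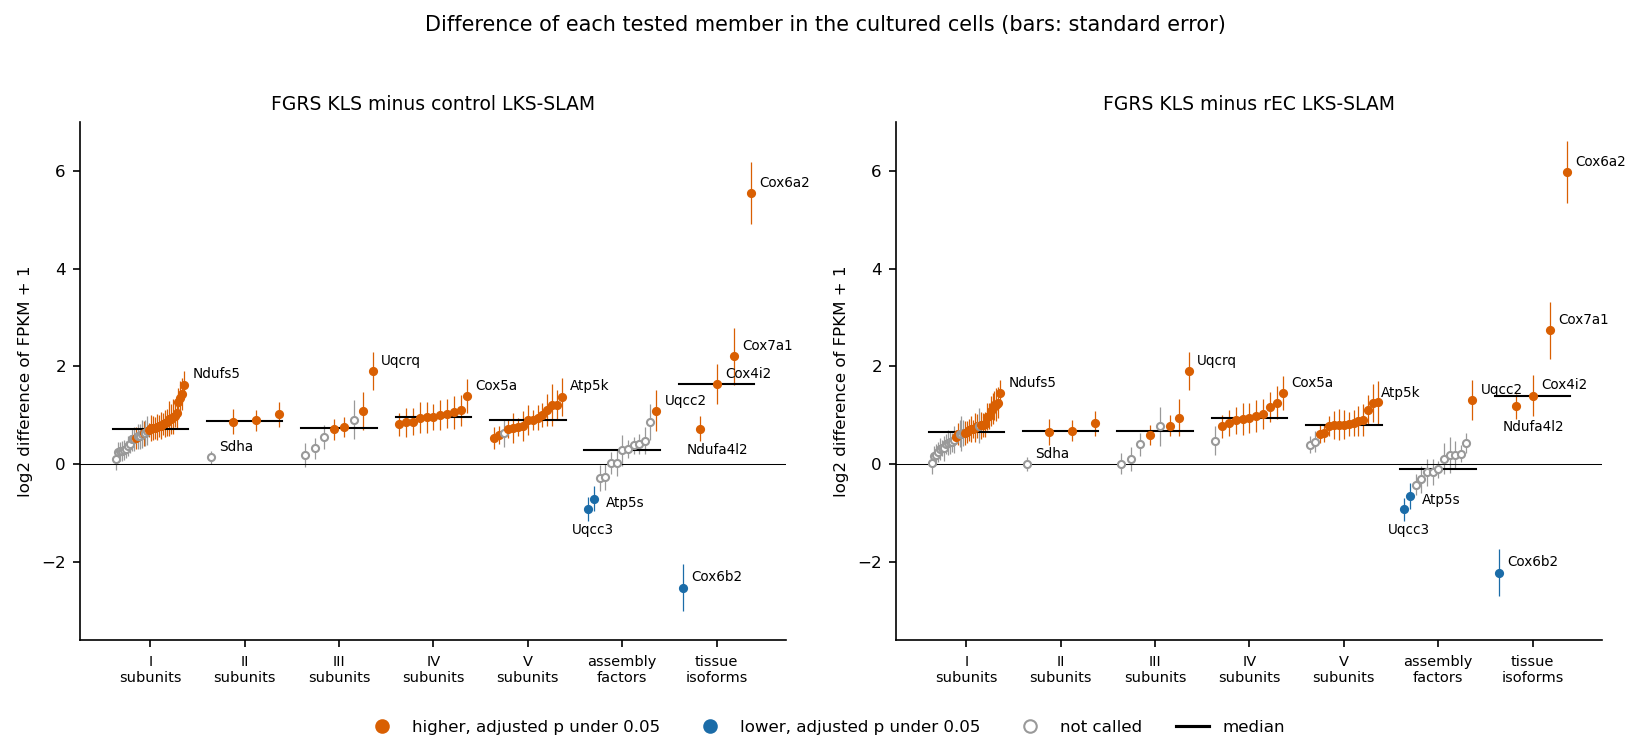
Log2 difference of FPKM + 1 with its standard error for each tested member, FGRS KLS minus control LKS-SLAM on the left and FGRS KLS minus rEC LKS-SLAM on the right, by complex, assembly factors and tissue isoforms (x axis). On the left all 74 subunits lie above 0, and Cox6a2 stands highest and Cox6b2 lowest in both panels.

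Against rEC LKS-SLAM cells, the same cultured libraries gave a median subunit difference of 0.77. This comparison shares the FGRS KLS libraries with the one above. Here 55 members were higher and 3 lower, where 17.2% of all tested genes were higher and 27.8% lower, and 50 of the 74 subunits were higher. By complex the higher counts were 20 of 36, 3 of 4, 4 of 8, 10 of 11 and 13 of 15 for I to V. Cox7c of complex IV did not pass (0.48 ± 0.30, adjusted p = 0.2). Uqcrq, at 446, 634 and 736 FPKM in FGRS KLS cells, had 118, 414 and 79.5 FPKM in rEC LKS-SLAM cells, with no overlap (1.91 ± 0.38, adjusted p = 0.000441). Uqcc3 was again lower, with 44.5, 34.4 and 36.5 FPKM in rEC LKS-SLAM cells (-0.92 ± 0.24, adjusted p = 0.00364), and the groups were apart. Atp5s passed by a narrow margin (-0.65, adjusted p = 0.0468) and lost its call when any 1 of the FGRS KLS libraries or rEC replicate 1 or 3 was left out (adjusted p = 0.0676 to 0.14). The groups overlapped for most members, since rEC LKS-SLAM replicate 2 lay among the cultured libraries: only 7 members were higher and 3 lower without overlap, against 12.9% and 20.3% of all tested genes. Without that library and rEC B replicate 1, 81 members were called, where 25.4% of all genes were higher and 38.6% lower. In a model of these 6 libraries alone 4 were called. Quantile normalisation left 20 higher and 2 lower, where 18.4% of all genes were higher and 21.8% lower, so the members' higher count was then near that of all genes. Leaving out 1 library gave 17 calls without rEC replicate 3, 35 without rEC replicate 1, 29 without FGRS KLS replicate 2 and 33 without FGRS KLS replicate 3. With FGRS KLS replicate 1 as the single cultured library, 5 members were called.

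The largest differences were among the tissue isoforms of complex IV, and they ran in both directions. Cox6a2 encodes the heart and skeletal muscle form of subunit VIa, and Cox6a1 the form found in most other tissues. Cox6a2 had 147, 93.5 and 108 FPKM in the FGRS KLS libraries, 0, 5.03 and 0 FPKM in rEC LKS-SLAM cells and 0.464, 0 and 9.28 FPKM in control LKS-SLAM cells. Every cultured library was thus far above every native one, and no blood library exceeded 1.06 FPKM. The difference was 5.54 ± 0.63 from control LKS-SLAM cells (adjusted p = 8.98e-07) and 5.98 ± 0.63 from rEC LKS-SLAM cells (adjusted p = 2.56e-07). Cox6a2 made up 14.9 ± 6.1% of the summed FPKM of Cox6a1 and Cox6a2 in FGRS KLS cells, 0.245 ± 0.424% in rEC LKS-SLAM cells and 1.08 ± 1.75% in control LKS-SLAM cells (SD, n = 3 each). In the mm10 annotation Cox6a2 lies at chr7:128205435-128206387 on the minus strand and overlaps Itgad, an integrin gene, with which it shares 3.17% of its 51-base windows. Itgad had 0.67, 0.18 and 0.12 FPKM in the FGRS KLS libraries.

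Cox6b2 encodes the testis form of subunit VIb and went the other way. It had 12.9, 13.0 and 10.2 FPKM in FGRS KLS cells, 31.5, 171 and 38.5 FPKM in rEC LKS-SLAM cells and 81.8, 99.0 and 49.7 FPKM in control LKS-SLAM cells. All 6 LKS-SLAM libraries lay above the cultured ones. The difference was -2.53 ± 0.48 from control LKS-SLAM cells (adjusted p = 0.000248) and -2.22 ± 0.48 from rEC LKS-SLAM cells (adjusted p = 0.000902). Its common partner Cox6b1 rose in the same cultured cells, by 0.96 ± 0.32 against control LKS-SLAM cells (adjusted p = 0.0173). As a share of both, Cox6b2 made up 2.34 ± 0.80% in FGRS KLS cells, 18.8 ± 4.7% in rEC LKS-SLAM cells and 21.8 ± 3.2% in control LKS-SLAM cells (SD, n = 3 each). In the other groups the mean share was 0.84 to 4.34%. No 51-base window of Cox6b2 or Cox6b1 is shared with another gene.

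The 3 other tested isoforms were at low levels. Cox7a1, the heart and muscle form of subunit VIIa, had 8.89, 12.02 and 7.16 FPKM in FGRS KLS cells, against 1.62, 3.11 and 0 FPKM in control LKS-SLAM cells (2.203 ± 0.590, adjusted p = 0.00422). Cox4i2, the form of subunit IV known to be induced by low oxygen, had 9.64, 8.30 and 10.3 FPKM in FGRS KLS cells, against 6.27, 4.10 and 0 FPKM in control LKS-SLAM cells (1.64 ± 0.41, adjusted p = 0.00272). Ndufa4l2, a hypoxia-induced relative of the complex IV subunit Ndufa4, had 0.810, 0.869 and 2.45 FPKM in FGRS KLS cells, against 0, 1.59 and 0 FPKM in control LKS-SLAM cells. The first and the second of these isoforms did not overlap between the groups, while Ndufa4l2 did. Its difference of 0.72 ± 0.26 (adjusted p = 0.0236) did not pass without control LKS-SLAM replicate 1 or 3 (adjusted p = 0.147 and 0.14). Against rEC LKS-SLAM cells the differences were 2.73 ± 0.59 for Cox7a1, 1.40 ± 0.41 for Cox4i2 and 1.18 ± 0.26 for Ndufa4l2, and all 3 passed.

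**Figure D3:**
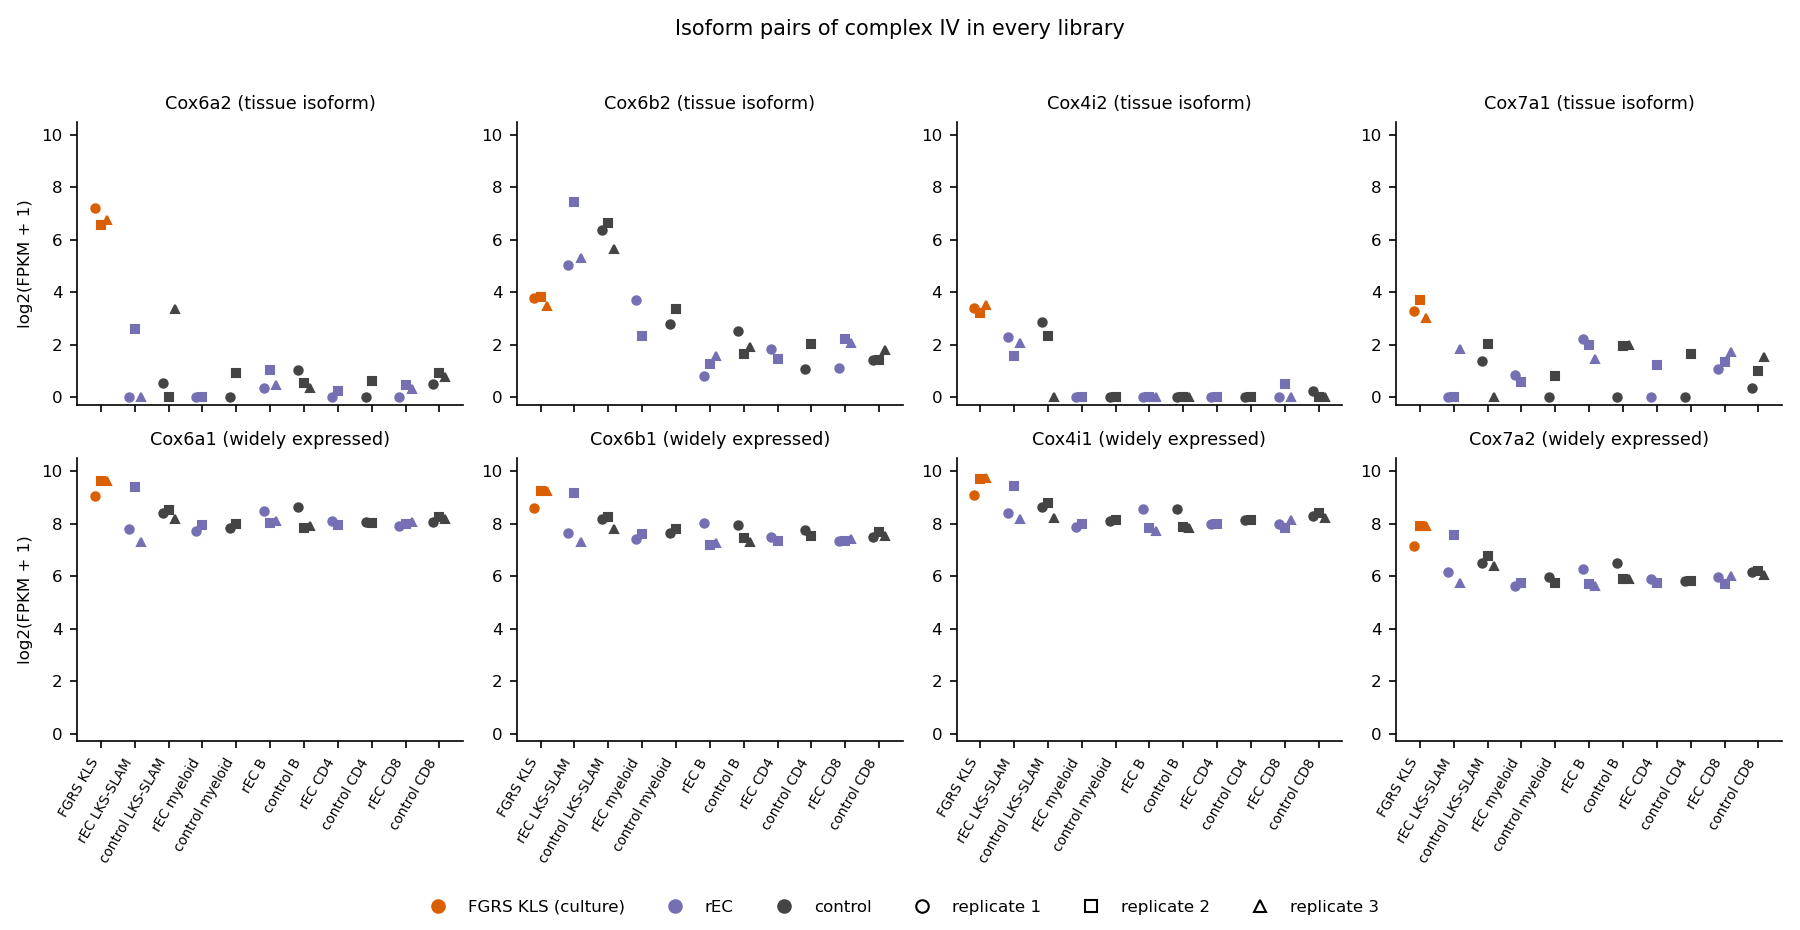
Log2(FPKM + 1) of 4 tissue isoforms of complex IV (upper row) and their widely expressed partners (lower row) in every library, by group. Cox6a2 stands out in the 3 FGRS KLS libraries, with 93.5 to 147 FPKM, and Cox6b2 in the LKS-SLAM libraries, with 31.5 to 171 FPKM.

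The sequence before the start of the Cox6a1, Cox6b1 and Cox6b2 genes is shown to set 2 widely expressed forms beside a tissue form. Each sequence below is the 250 bases before the gene's start as placed by RefSeq (GRCm38.p6, mm10), read 5′ to 3′ on the gene's strand, with capitals marking matches to the NRF1 motif (GCGCA and GCGC with any 1 base between them) or the ETS motif CCGGAAG on either strand. Cox6a1 lies at chr5:115348959-115349208, Cox6b1 at chr7:30626115-30626364 and Cox6b2 at chr7:4753095-4753344, all on the minus strand.
Cox6a1: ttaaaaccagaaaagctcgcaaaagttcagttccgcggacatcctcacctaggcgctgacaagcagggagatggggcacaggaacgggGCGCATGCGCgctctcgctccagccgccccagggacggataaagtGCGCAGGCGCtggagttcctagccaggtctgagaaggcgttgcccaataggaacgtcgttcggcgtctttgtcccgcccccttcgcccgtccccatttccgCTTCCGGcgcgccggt
Cox6b1: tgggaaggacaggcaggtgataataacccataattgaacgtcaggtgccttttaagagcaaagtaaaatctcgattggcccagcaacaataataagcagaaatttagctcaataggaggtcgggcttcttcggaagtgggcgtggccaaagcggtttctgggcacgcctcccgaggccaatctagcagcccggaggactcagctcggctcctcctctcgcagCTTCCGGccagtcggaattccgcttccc
Cox6b2: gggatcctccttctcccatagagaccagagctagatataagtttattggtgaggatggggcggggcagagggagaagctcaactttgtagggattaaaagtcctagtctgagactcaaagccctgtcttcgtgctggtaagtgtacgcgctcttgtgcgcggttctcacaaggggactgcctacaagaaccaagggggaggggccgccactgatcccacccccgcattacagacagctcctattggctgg
Cox6a1 holds 3 matches to these motifs and Cox6b1 holds 1, while the Cox6b2 window holds 0. A count of 0 is not particular to the tissue form, as the same window of the widely expressed Atp5g1 also holds 0. A match is a run of letters and not a bound site.

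Over all members, RefSeq gave promoters for 79 of 95, of which 63 were subunits. In windows from 250 bases before to 50 bases after the start, searched on both strands, the NRF1 motif stood in 16 of 63 subunit promoters (25.4%) and in 4.78% of 27025 promoters. NRF1 is a known activator of nuclear respiratory genes. The ETS motif, read by the respiratory factor GABPA, stood in 15 (23.8%), against 9.12% of all promoters. The YY1 motif AAGATGG stood in 10 (15.9%), against 6.48%. None of these 3 motifs stood in the 4 isoform promoters found, those of Cox6b2, Cox7a1, Cox7b2 and Cox8b. At the shares of all promoters, 4 are too few to set the isoforms apart. Cox6a2 and Cox4i2 had no promoter in this set. The low-oxygen core ACGTG stood in 15 subunit promoters (23.8%) and in 19.7% of all promoters, with the E-box CACGTG, which overlaps it, in 9.52% and 7.24%. TATAAA was in 7.94% of the subunit promoters, against 14.2% of all promoters. The ESRRA motif TNAAGGTCA was in 4.76%, against 1.26%. Of the 4 isoform promoters 2 held ACGTG and 2 held TATAAA.

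By Pearson correlation of log2(FPKM + 1) over the 29 libraries, the genes most like Cox6a2 were Bcat1 (0.942), Sgip1 (0.938), Hyou1 (0.929), Cth (0.929) and Ccnb1ip1 (0.929). The 3 FGRS KLS libraries set these values, which are descriptive. Bcat1, the cytosolic branched-chain aminotransferase, averaged 9.89 FPKM in FGRS KLS cells and was at most 0.259 FPKM in any other library. Cth, an enzyme of cysteine synthesis, averaged 26.8 FPKM in FGRS KLS cells and was at most 0.157 FPKM elsewhere.

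The next comparisons asked how the subunits differ between native blood cells and native stem-cell-enriched marrow cells. They share the control LKS-SLAM libraries, so their values are set side by side. In control myeloid cells 56 of 92 members were lower than in control LKS-SLAM cells and 0 were higher, where 49.1% of all tested genes were lower and 17.4% higher. In control B cells 33 were lower and 1 higher (all genes 36.7% and 18.9%), in control CD4 cells 25 and 0 (32% and 18.6%), and in control CD8 cells 21 and 0 (33.2% and 17%). At an unadjusted p under 0.05 the higher members numbered 0, 2, 0 and 1 in myeloid, B, CD4 and CD8 cells. All tested genes at that p, not split by direction, numbered 9732, 8471, 7921 and 7875 of 14083 in that order. The median subunit difference was -0.85, -0.52, -0.49 and -0.39 in myeloid, B, CD4 and CD8 cells, against -0.61, -0.25, -0.21 and -0.21 over all tested genes. The members' lower counts in B, CD4 and CD8 cells were thus near or under the share of all genes. Libraries of the groups did not overlap for 77 members that were lower and 0 higher in myeloid cells (all genes 57.4% and 23.7%), 34 and 2 in B cells (42.2% and 23.4%), 58 and 6 in CD4 cells (42.8% and 28.1%), and 50 and 5 in CD8 cells (43.4% and 25.8%).

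**Figure D4:**
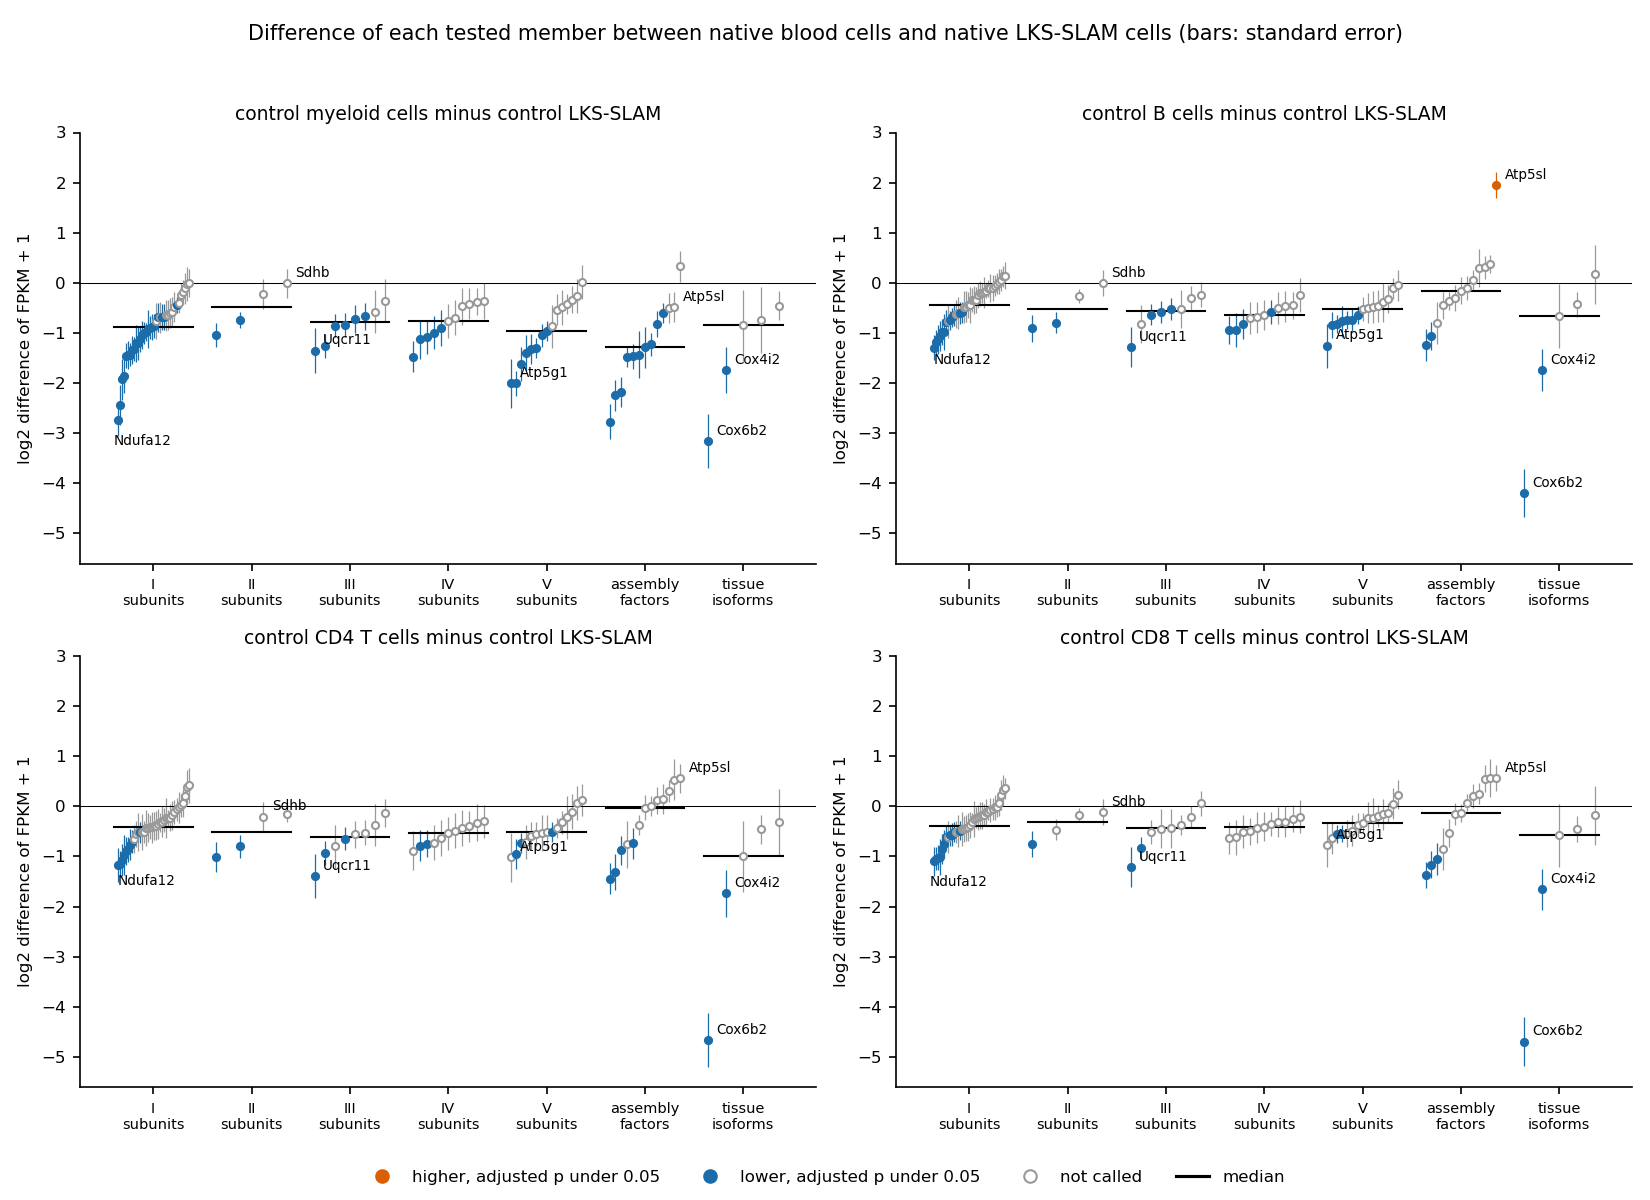
Log2 difference of FPKM + 1 with its standard error for each tested member, control blood cells minus control LKS-SLAM cells, by complex, assembly factors and tissue isoforms (x axis), 1 panel per blood cell type. Cox6b2 is the lowest point in each panel, and Atp5sl in B cells is the single member called higher.

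Scaling set the size of these differences. After median-ratio scaling 22 of the 56 myeloid calls remained, 26 subunits were positive and 48 negative, Ndufaf3 was among the called members that changed sign, and 34.3% of all genes were lower and 29.6% higher. After quantile normalisation 49 of the 56 myeloid calls remained, and Ndufaf3 changed sign, with 30.6% of all genes lower and 29.2% higher. Quantile normalisation also turned the split of all genes to more higher than lower, at 32.3% and 25.4% in B cells, 29.1% and 23.9% in CD4 cells and 29.8% and 24.2% in CD8 cells. It kept 33 of 34, 23 of 25 and 20 of 21 member calls in these cells. Median-ratio scaling kept fewer there, 23 of 34, 17 of 25 and 10 of 21. Of all genes 32%, 28.7% and 28.6% were then lower and 23.1%, 21.3% and 21.3% higher.

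In myeloid cells 44 of 74 subunits fell, among them all 7 core subunits of complex I and 8 of 15 subunits of complex V, where 49.1% of all tested genes were lower. Ndufa12, an accessory subunit of complex I, had 17.2 and 17.2 FPKM in control myeloid cells, against 121, 131 and 110 FPKM in control LKS-SLAM cells. This was the largest fall of a subunit in that comparison (-2.74 ± 0.32, adjusted p = 2.02e-07), with no overlap, and 26.04% of the gene's 51-base windows are shared with other genes' transcripts. Ndufab1, the mitochondrial acyl carrier protein, which also serves lipoic acid synthesis, averaged 12.2 ± 3.1 FPKM in control myeloid cells (SD, n = 2) and 69.8 ± 8.0 FPKM in control LKS-SLAM cells (SD, n = 3), a difference of -2.43 ± 0.40 (adjusted p = 1.99e-05). Within complex II, Sdha fell (-0.74 ± 0.16, adjusted p = 0.000329), while Sdhb had 76.2 and 71.6 FPKM in control myeloid cells, against 75.4, 80.9 and 67.8 FPKM in control LKS-SLAM cells. The Sdhb values overlapped (-0.01 ± 0.29, adjusted p = 0.978).

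Of the 13 assembly factors 10 were lower in myeloid cells, with a median of -1.29, beside 49.1% of all tested genes and a median of -0.61. One of the 10, Ndufaf3, changed sign under both scalings, and median-ratio scaling ended most member calls in these cells. Ndufaf2, which works on the growing complex I, had 5.47 and 3.13 FPKM in control myeloid cells, against 36.6, 41.7 and 26.1 FPKM in control LKS-SLAM cells. The groups were far apart (-2.77 ± 0.36, adjusted p = 8.18e-07). The B cells held the single member called higher, Atp5sl, a factor for the membrane arm of complex I despite its name. It had 137, 100 and 99.3 FPKM in control B cells, against 34.0, 29.01 and 22.1 FPKM in control LKS-SLAM cells, with no overlap (1.95 ± 0.26, adjusted p = 2.2e-06). In the other blood cells of either origin Atp5sl had 17.5 to 45.9 FPKM, and in rEC B cells it had 63.0, 95.7 and 154 FPKM.

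In CD8 cells none of the 11 complex IV subunits passed. Ndufc2, an accessory subunit of complex I, had 59.0, 36.9 and 40.1 FPKM in control B cells, against 105, 109 and 118 FPKM in control LKS-SLAM cells. It was lower in every B library (-1.29 ± 0.25, adjusted p = 0.000153) and also passed in CD4 cells (-0.88 ± 0.28, adjusted p = 0.0115) and CD8 cells (-1.02 ± 0.25, adjusted p = 0.00165). Ndufaf6, a complex I assembly factor, had 2.86 and 2.72 FPKM in control CD4 cells, against 9.79, 11.5 and 7.03 FPKM in control LKS-SLAM cells (-1.44 ± 0.31, adjusted p = 0.000516). Atp5s had 3.69, 2.93 and 2.42 FPKM in control CD8 cells, against 8.42, 12.04 and 7.74 FPKM in control LKS-SLAM cells. Neither Ndufaf6 nor Atp5s overlapped between the groups, and the Atp5s difference was -1.36 ± 0.26 (adjusted p = 0.000171). The control CD8 libraries also held B cell transcripts, with means of 4.14 to 5.22 on the log2(FPKM + 1) scale over 10 B cell markers, against 1.13 to 2.94 in control LKS-SLAM cells, and the part of these transcripts in the CD8 values was not tested.

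Cox6b2 was lower than in control LKS-SLAM cells in all 4 native blood types. It had 5.84 and 9.33 FPKM in control myeloid cells, 4.80, 2.13 and 2.75 FPKM in control B cells, 1.11 and 3.14 FPKM in control CD4 cells and 1.64, 1.66 and 2.44 FPKM in control CD8 cells. All lay below the 49.7 FPKM of the lowest control LKS-SLAM library. The differences were -3.15 ± 0.54, -4.20 ± 0.48, -4.67 ± 0.54 and -4.69 ± 0.48 in that order of cells (adjusted p = 2.88e-05, 2.43e-07, 4.39e-07 and 6.58e-08). Cox4i2 was also called lower in each of the 4, by 1.66 to 1.74. The other 3 tested isoforms did not pass in any of them with all libraries. Ndufa4l2 was called lower without control LKS-SLAM replicate 3 in myeloid, B and CD8 cells (adjusted p = 0.045, 0.0435 and 0.0396) and without replicate 1 in B and CD8 cells (adjusted p = 0.049 and 0.0459). Control LKS-SLAM replicate 3 carried most of the Cox6a2 in native cells, without which its differences were 0.18, 0.37, 0.03 and 0.45 in place of -0.85, -0.66, -0.997 and -0.58.

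The comparison of rEC with control cells of the same type asked whether origin from converted endothelium left a difference in these mRNAs. None of the 92 members passed in any of the 5 cell types with limma. Among all tested genes 0.071% were higher and 1.25% lower in LKS-SLAM cells, 0.0639% higher and 0.163% lower (0.227% together) in myeloid cells, 0% in either direction in B cells, 0.0142% higher and 0.0071% lower (0.0213% together) in CD4 cells, and 0.142% higher and 0.987% lower in CD8 cells. At an unadjusted p under 0.05 the members numbered 1 in LKS-SLAM cells and 0 in the others. Of all 14083 tested genes, 1325 in LKS-SLAM, 526 in myeloid, 398 in B, 417 in CD4 and 1050 in CD8 cells had such a p. The standard errors of the subunit differences were 0.14 to 0.44 between groups of 3 and 0.17 to 0.54 between groups of 2. These are not limits of detection, as differences above 1 standard error also missed the call. In LKS-SLAM cells the assembly factor Uqcc1, at 0.42 ± 0.18, did not pass (limma, adjusted p = 0.441). In B cells Cox6b2, at -0.81 ± 0.48, did not pass either. Origin differences of these sizes, and possibly larger ones, could therefore go unseen here. An F test asked whether the origin difference itself varied between the 5 cell types. It passed for 0 of 92 members and for 0.277% of all tested genes. At an unadjusted p under 0.05 it gave 0 members, and 711 of all 14083 tested genes.

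In LKS-SLAM cells the median subunit difference was 0.10, with 51 positive and 23 negative, and for 0 members were the groups' libraries apart, against 2.07% higher and 4.37% lower of all tested genes. Uqcc1, an assembly factor of complex III, had the smallest p. It had 15.1, 23.6 and 13.3 FPKM in rEC LKS-SLAM cells, against 14.1, 14.7 and 9.03 FPKM in control LKS-SLAM cells (0.42 ± 0.18, adjusted p = 0.441). Ndufaf1, which works with complex I intermediates, had 7.92, 23.7 and 11.98 FPKM in rEC LKS-SLAM cells, against 10.6, 9.44 and 8.49 FPKM in control LKS-SLAM cells (0.44 ± 0.22, adjusted p = 0.567). In both genes rEC replicate 2 was the highest library and the others overlapped with the control ones.

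rEC LKS-SLAM replicate 2 decided the direction of the subunits. Its Atp5b was at 1120 FPKM, against 408 and 308 FPKM in the other 2 rEC libraries and 486, 508 and 446 FPKM in the control libraries. Its mean over 26 cell cycle genes was 6.74 on the log2(FPKM + 1) scale, against 3.75 and 3.57 in the other rEC libraries and 5.49, 5.55 and 4.62 in the control ones. Without this library and rEC B replicate 1, 2 subunits were positive and 72 negative, and 8 members passed, where 4.25% of all tested genes were higher and 6.81% lower. The 7 that were then lower were Atp5b (-0.43), Atp5g1 (-0.95), Atp5h (-0.60), Cox5a (-0.69), Cox6a1 (-0.82), Ndufa1 (-0.69) and Ndufa3 (-0.62). Cox7a2l, a factor that joins complexes III and IV into supercomplexes, was higher by 0.44 (adjusted p = 0.0499). It had 345, 147 and 359 FPKM in rEC LKS-SLAM cells, against 249.4, 262 and 265 FPKM in control LKS-SLAM cells. Only replicate 2 lay below the control libraries. With limma's array weights, which give less weight to outlying libraries, 3 members were higher and 48 lower, where 15.2% of all genes were higher and 29.1% lower. The rEC libraries without replicate 2 were also lower in cell cycle genes. Other marker lists moved with them: the neutrophil mean was 4.18 and 1.48 in rEC replicates 1 and 3, against 6.66, 6.37 and 6.29 in the control libraries, the eosinophil mean was 0.46 and 0.14, against 6.49, 7.23 and 1.07, and the erythroid mean was 4.95 and 2.54, against 5.44, 5.99 and 6.39 (log2(FPKM + 1)). The part of cycling and of these cells in the differences was not tested.

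In the blood cells the subunit medians of the rEC minus control differences were -0.08 in myeloid, 0.02 in B, -0.11 in CD4 and -0.18 in CD8 cells. In B cells 43 subunits were positive and 31 negative, but 9 and 65 without rEC B replicate 1 (and rEC LKS-SLAM replicate 2), and in myeloid cells 20 were positive and 54 negative, but 39 and 35 after median-ratio scaling. In CD8 cells 67 of 74 subunits were negative. There 43 members were lower without overlap of the libraries, where 15.7% of all tested genes were, and 1 was higher, where 14.9% were. Atp5c1, the gamma subunit of the ATP synthase shaft, had 111, 125 and 137 FPKM in rEC CD8 cells, against 150, 162 and 151 FPKM in control CD8 cells. All rEC libraries lay below the control ones, but the difference of -0.31 ± 0.18 did not pass (adjusted p = 0.847). Ndufaf3, a complex I assembly factor, had 9.06, 9.38 and 10.1 FPKM in rEC CD8 cells, against 10.6, 14.4 and 12.3 FPKM in control CD8 cells (-0.35 ± 0.18, adjusted p = 0.726). The B cell transcripts of the control CD8 libraries were fewer in the rEC ones, whose means over the 10 B cell markers were 2.29, 0.93 and 2.62, and their part in these values was not tested.

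In CD4 cells 35 members were lower and 6 higher without overlap (21.1% and 16.1% of all genes), and in myeloid cells 35 lower and 7 higher (28.6% and 15.6%). The members with the smallest p were Uqcrc2 in myeloid cells (-0.49 ± 0.27), Ndufa9 and Ndufa13 in CD4 cells (-0.46 ± 0.27 and -0.39 ± 0.25), and Cox6b2 and Uqcrfs1 in B cells (-0.81 ± 0.48 and 0.34 ± 0.20), each with an adjusted p of 1. Uqcrc2, a core-fold protein of complex III, had 33.2 and 30.3 FPKM in rEC myeloid cells, against 46.6 and 43.5 FPKM in control myeloid cells. The second there, Uqcc1, had 3.24 and 2.59 FPKM in rEC myeloid cells, against 3.52 and 4.10 FPKM in control myeloid cells (-0.30 ± 0.22). Ndufa9, at the ubiquinone module of complex I, had 34.0 and 32.4 FPKM in rEC CD4 cells, against 47.3 and 44.8 FPKM in control CD4 cells. These 3 genes were apart in the 2 libraries of each group. Ndufa13, an accessory subunit of complex I, had 47.9 and 47.9 FPKM in rEC CD4 cells, against 65.2 and 61.1 FPKM in control CD4 cells. In B cells 2 members were lower and 0 higher without overlap, against 1.98% and 4.96% of all genes. Cox6b2 was one of them, with 0.736, 1.44 and 1.95 FPKM in rEC B cells, against 4.80, 2.13 and 2.75 FPKM in control B cells. Uqcrfs1 had 75.2, 61.8 and 51.6 FPKM in rEC B cells, against 64.3, 43.2 and 42.0 FPKM in control B cells, and these overlapped.

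The subunits differed in how closely they followed their complex. For each subunit the deviation of its group mean from the mean of its complex was taken on the log2(FPKM + 1) scale. Its range over the 11 groups was widest for Ndufa12 (1.86), Ndufab1 (1.70) and Atp5g1 (1.37) and narrowest for Uqcr10 (0.31). Ndufa12 lay 0.43 above its complex in FGRS KLS cells, 0.60 in rEC LKS-SLAM and 0.54 in control LKS-SLAM cells, but 1.08 below it in rEC myeloid and 1.26 below it in control myeloid cells. Uqcrq lay 1.22 above its complex in FGRS KLS cells and 0.12 above it in control LKS-SLAM cells. Counting can add to such spread, as 23 of the 74 subunits share over 10% of their 51-base windows with transcripts of other genes, 29 share none, and Atp5l shares 84.8%.

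Subunit transcripts are short, with a median of 655 bases against 1949 bases over all genes, and 56 of 74 are under 1 kb. Libraries differed in how short transcripts stood against long ones. The median log2(FPKM + 1) of transcripts under 1 kb minus that of transcripts over 3 kb was 1.02, 1.60 and 1.504 in FGRS KLS libraries, 0.97, 1.31 and 0.79 in rEC LKS-SLAM and 1.02, 1.04 and 0.91 in control LKS-SLAM libraries. FGRS KLS replicate 1, whose value lay within those of control LKS-SLAM cells, had a subunit mean of 7.47, against 7.12 in the highest control LKS-SLAM library, and with this library alone 6 members were called. Among 2352 tested genes outside the members with transcripts under 1 kb, 23.5% were higher and 23.7% lower in FGRS KLS than in control LKS-SLAM cells, with a median of 0.01. Among 3830 with transcripts over 3 kb, 11.5% were higher and 38.1% lower, with a median of -0.34. The part of length in the 53 of 74 subunits that were higher was not tested.

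**Figure D5:**
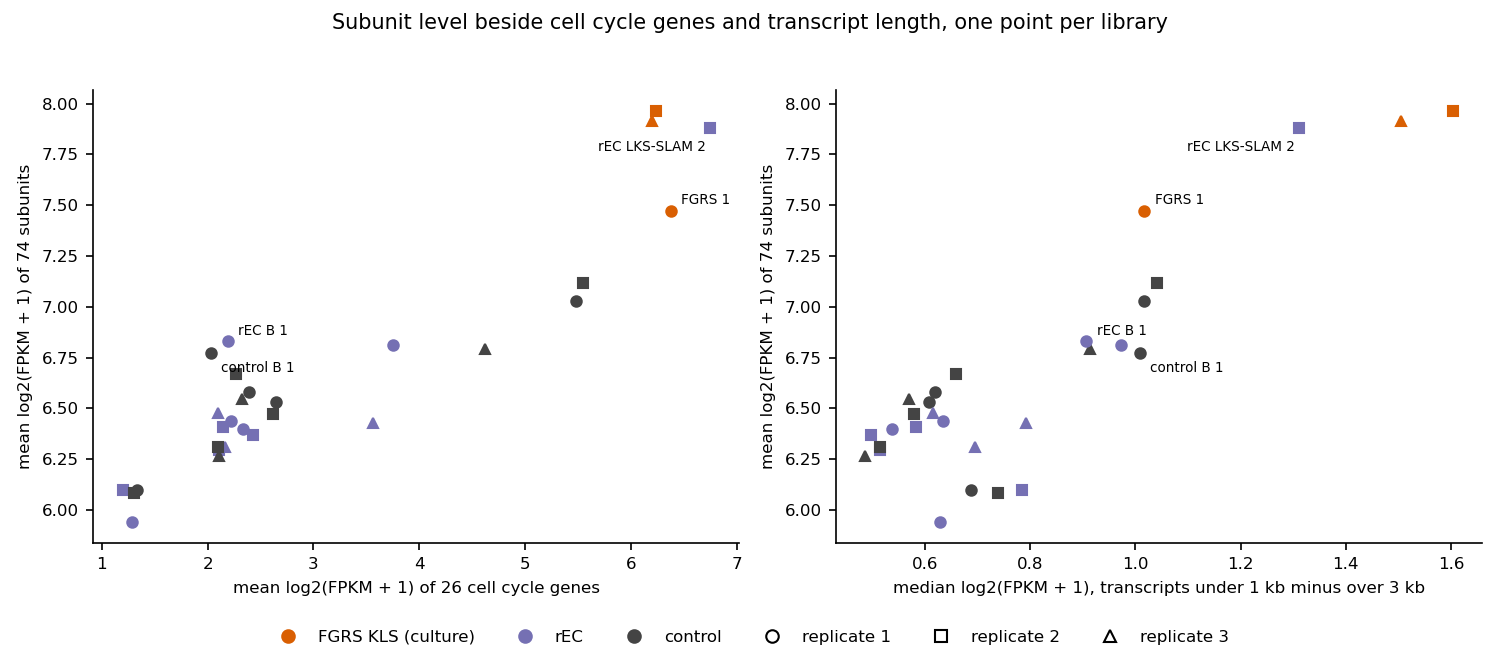
Mean log2(FPKM + 1) of the 74 subunits (y axis) beside the mean of 26 cell cycle genes (left) and the short minus long transcript difference (right), with 1 point per library. The FGRS KLS libraries and rEC LKS-SLAM replicate 2 lie at the top of both panels, and control B replicate 1 and rEC B replicate 1 stand above the other B cells on the right.

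The subunit level ran with the cell cycle genes across libraries. The mean over 26 cell cycle genes was 6.38, 6.23 and 6.202 in FGRS KLS cells and 5.49, 5.55 and 4.62 in control LKS-SLAM cells, and it was 1.196 to 2.65 in blood cells. Of these 26 genes 8 rose in FGRS KLS cells against control LKS-SLAM cells and 0 fell, and all 26 fell in each native blood type against control LKS-SLAM cells. The part of cycling in the subunit differences was not tested. Macrophage markers moved with the same comparison, 10 of 12 higher and 0 lower in FGRS KLS cells, as did stem cell markers, 9 of 10 lower. Their part was not tested.

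Other genes of the respiratory chain and of mitochondrial metabolism were read from lists of known members, beside the 17.1% of all tested genes that were higher and the 31.7% that were lower in this comparison. Both cytochrome genes listed rose in FGRS KLS cells against control LKS-SLAM cells: Cycs, cytochrome c itself, by 2.14 ± 0.43 (adjusted p = 0.000402) and Cyc1, the cytochrome c1 subunit of complex III, by 0.91 ± 0.35 (adjusted p = 0.0366). Of 14 citric acid cycle genes 10 rose and 1 fell, with a median of 0.65, led by Mdh2 (1.21), Fh1 (1.002), Cs (0.94) and Idh3a (0.92). Of 77 mitochondrial ribosomal protein genes 50 rose and 0 fell, with a median of 0.68, whereas 4 of 79 cytosolic ribosomal protein genes rose and 0 fell, with a median of 0.02. Glycolysis moved further: 14 of 16 genes rose and 1 fell, with a median of 2.12, led by the lactate exporter Slc16a3 (4.95), Eno1 (3.20), Pgk1 (2.94) and Pgam1 (2.90). Of 6 genes known for the low-oxygen switch of the respiratory chain 5 rose, with Bnip3, a mitophagy receptor, at 2.90 and Higd1a, a complex IV partner, at 1.76; Cox4i2 and Ndufa4l2 also stand in this list.

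Assembly, regulation and pyruvate entry were mixed in the same comparison, with counts that lay near or under the shares of all tested genes, 17.1% higher and 31.7% lower. Of 36 assembly factors outside the 95 members 8 rose and 4 fell, with a median of 0.18. Cox17, a copper chaperone for complex IV, rose by 1.29 and the complex IV factor Coa3 by 1.28, while Bcs1l, which inserts the Rieske protein into complex III, fell by 0.84 on the log2 scale. Of 15 regulators of mitochondrial biogenesis 1 rose and 4 fell: the nuclear receptor Esrra rose by 0.70, while Myc fell by 2.169, the coactivator Ppargc1a by 0.69 and the mitochondrial helicase Peo1 by 0.68 on the log2 scale. At the entry of pyruvate, the kinases Pdk2 and Pdk4, which restrain pyruvate dehydrogenase, fell by 2.71 and 1.62, and the carrier subunit Mpc1 rose by 1.07 and Pdhx by 0.61, so 2 of 11 genes rose and 2 fell. Of 7 mitochondrial antioxidant genes 2 rose, Sod2 by 1.02 and Prdx5 by 0.82, and 0 fell.

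In native myeloid cells against control LKS-SLAM cells, 10 of 14 citric acid cycle genes, 23 of 36 other assembly factors and 59 of 77 mitochondrial ribosomal protein genes fell, with 0, 0 and 1 higher, where 49.1% of all tested genes were lower. Cytosolic ribosomal protein genes moved too, with 75 of 79 lower and 1 higher. Glycolysis genes were split there, with 2 higher and 7 lower of 16. In control B, CD4 and CD8 cells 12, 12 and 13 of the 16 glycolysis genes were lower and 0, 1 and 2 higher, where 36.7%, 32% and 33.2% of all tested genes were lower. Of 14 citric acid cycle genes 4, 5 and 4 were lower and 0 higher, which is near those shares.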

How the data were processed

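The deposited table holds FPKM per gene symbol. Per the submitters' processing notes, which give no roles or order, the authors' tools included Trimmomatic (version 0.36), TopHat2 (version 2.1.0) and Cufflinks (version 2.2.1), with mm10. Per the labels' protocols, the poly-A libraries were not stranded and were read as 51-base pairs, so reads of overlapping genes cannot be assigned by strand. FPKM hold no counts, and no interval for counting error could be given.

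Of 23060 symbols, 14083 had at least 1 FPKM in at least 2 of 29 grouped libraries and were tested. limma 3.58.1 in R 4.3.3 was fitted to log2(FPKM + 1) with a mean for each of 11 groups and an intensity trend, with 18 residual degrees of freedom. Differences are on this log2 scale, which understates changes of low genes. Tests were two-sided, with Benjamini-Hochberg adjustment over all tested genes in each of 11 comparisons, and called at 0.05. The fit was tested on simulated data. One column without a group was left out.

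The members, lists and tests were chosen with earlier results of these data known. By rule the text names all tissue isoforms, in each comparison the 3 members with the largest rise and the 3 with the largest fall among those that passed (or, with none, the 2 with the smallest p), the most abundant member of each complex, and up to 4 genes per other list. Other members are named for their role, after their values were seen. Shared windows and positions came from a GENCODE annotation of mm10, and promoters from RefSeq (GRCm38.p6). Alternatives were another pseudocount, filter, scaling or weighting, a model of the compared libraries alone, a replicate block, single libraries left out, and rEC LKS-SLAM replicate 2 and rEC B replicate 1 left out together. FGRS KLS replicate 1 alone was added after seeing the data. Some items are not reported here.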

Additional observations from a re-analysis of the deposited data

How the results depend on the processing

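Counts of members called, of 92 tested, stayed within 1.5 times of the reported count under the smaller pseudocount of 0.1 and the filters, in all 11 comparisons. Quantile normalisation gave 24 for FGRS KLS against control LKS-SLAM and 22 for FGRS KLS against rEC LKS-SLAM cells. Median-ratio scaling gave 23 for control myeloid and 12 for control CD8 against control LKS-SLAM cells. Of all genes 29.6% were then higher and 34.3% lower in myeloid cells, and 21.3% and 28.6% in CD8 cells. Array weights gave 51 for rEC against control LKS-SLAM, 9 for rEC against control CD8, 88 for FGRS KLS against rEC LKS-SLAM, and 80, 69 and 69 for control B, CD4 and CD8 against control LKS-SLAM cells, with 22 in the F test. All genes moved too, with 15.2% higher and 29.1% lower in the first, 5.46% and 7.07% in the second and 34.7% and 47.5% in the third. For control B, CD4 and CD8 cells these shares were 25.8% and 49.6%, 23.8% and 43.5%, and 24.5% and 47.7%. Models of the compared libraries alone gave 1 for rEC against control CD8, 4 for FGRS KLS against rEC LKS-SLAM, and 45 and 49 for control CD4 and CD8 cells. Without rEC LKS-SLAM replicate 2 and rEC B replicate 1 the counts were 8 for rEC against control LKS-SLAM, and 55, 45 and 45 for control B, CD4 and CD8 against control LKS-SLAM cells. Of all genes 4.25% were then higher and 6.81% lower in the first. In control B, CD4 and CD8 cells 22.7% and 43.2%, 23.3% and 39.3%, and 21.4% and 40.7% were. FGRS KLS replicate 1 alone gave 6 against control and 5 against rEC LKS-SLAM cells. No share of all genes is given for the weighted F test, the models of the compared libraries alone or single libraries left out. Those counts therefore cannot be read as particular to the members. The causes were not tested.

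With 1 library left out, counts ran from 38 to 72 for FGRS KLS against control LKS-SLAM, from 17 to 81 against rEC LKS-SLAM, and from 44 to 61, 22 to 42, 10 to 25 and 11 to 21 for control myeloid, B, CD4 and CD8 cells against control LKS-SLAM cells. The lowest B count was without control B replicate 2. Counts in CD4 cells were 10 and 11 without either CD4 library and 15 without control LKS-SLAM replicate 2. In CD8 cells they were 11 without control CD8 replicate 3 and 12 and 11 without control LKS-SLAM replicate 1 or 2. rEC against control LKS-SLAM ran from 0 to 3, with 3 without rEC replicate 2 and 1 without rEC replicate 1, where Ndufaf1 was called (adjusted p = 0.0311). The other rEC comparisons and the F test stayed at 0. A lone library was assumed to vary like the other groups.

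The sign of 17 named values turned, none of them called. Cox7a1 was at 0.032, 0.28 and 0.44 in control myeloid, CD4 and CD8 cells against control LKS-SLAM cells after quantile normalisation, and at 0.50 in CD4 cells without control CD4 replicate 1, within a range from -1.14. Array weights gave -0.26 for Ndufaf1 and -0.10 for Cox4i2 in rEC against control LKS-SLAM, -0.16 for Cox7a1 in rEC against control B cells, and 0.10, 0.14 and 0.37 for Cox6a2 in control myeloid, B and CD8 cells. rEC against control B gave -0.070 for Cox7a1 without control B replicate 1, and up to 0.93 without replicate 3. Without control LKS-SLAM replicate 3, rEC against control LKS-SLAM gave -0.63 for Cox4i2 and 0.59 for Cox6a2 (up to 0.80 for Cox4i2 without control replicate 1 and down to -1.30 for Cox6a2 without rEC replicate 2), and Cox6a2 was at 0.18, 0.37, 0.032 and 0.45 in control myeloid, B, CD4 and CD8 cells, against lowest values of -1.50, -1.31, -1.65 and -1.23 without replicate 2. Of 1164 named values under other settings, 34 lost and 15 gained a call.

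With a replicate block, 58 members were called for FGRS KLS against control LKS-SLAM and 0 for rEC against control myeloid cells. Deviations of same-numbered libraries correlated at -0.060, 0.065 and -0.089 in the first and at 0.075 in the second. FGRS KLS replicate 1 correlated best with control replicate 3 (0.092), and myeloid libraries with unlike numbers correlated at -0.075. With 2 or 3 libraries a group such deviations are tied to each other, so they cannot show whether the numbers pair samples. Without counts, depth cannot set limits here, and levels in the blood cells rest on 2 or 3 libraries a group.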
